A study of Mus musculus with 37 samples.

Results

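Embryos that had lived for 1 d without a genome were compared with zygotes held at M phase on the first of a pair of bead-array versions, and with MII oocytes on the second. They were chosen by their titles: 1 genome-less sample and 3 M-phase zygote samples on the first version, 1 genome-less sample and 2 MII oocyte samples on the second, 7 of the 37 arrays in all. A repeat hybridization of an M-phase zygote sample was left out, since it holds RNA that is already present.

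The series studied nuclear transfer in the mouse, in which the genome of a dividing zygote, blastomere or oocyte is exchanged for that of a donor cell. Embryos were grown in KSOM, a culture medium for early embryos. The genome-less embryos carry the source label of the 2-cell stage and hold maternal cytoplasm with no nuclear genome to transcribe. M-phase zygotes are fertilised eggs in mitosis, and MII oocytes are eggs arrested at the second meiotic metaphase; both carry their own chromosomes. For orientation, 2-cell controls and 1-cell embryos kept from cleaving, both collected about 22 to 24 h after the first mitosis where a time is given, were set beside them. Those 2 control samples of the 2-cell stage were hybridized to both versions, so that the second version holds the same RNA again. The sources used here do not give the strain or sex of the embryos, the number pooled per array, how the genome was removed, or whether both genome-less arrays hold the same RNA.

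The mammalian egg is loaded with RNA while it grows and is silent from the end of growth until the embryonic genome switches on, which in the mouse happens mainly at the 2-cell stage. In between, maternal RNA is stored, has its poly(A) tail lengthened or shortened, and is degraded, first by factors that the egg itself supplies, such as BTG4 with the CCR4-NOT deadenylase, and later with the help of newly made embryonic products. A cytoplasm without a nuclear genome can carry out the maternal steps but cannot renew the RNA of nuclear genes. On arrays such as these a level is a share of the RNA in the sample, so less RNA per embryo and fewer embryos cannot be told apart. A gene can read higher where others have been lost. Tail length was not measured, and its part in the rises and falls below was not tested.

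The genome-less array of the first version was dim. It detected 18.8% of its probes at p below 0.05, against 38.6 to 40.9% on the M-phase zygote arrays. The 99th percentile of its signal was 242, against 1223 to 3314. Its lowest detected signal lay at 6.53 on the normalised log2 scale, so that fainter RNA could not be measured. The array of interphase nuclear transfer with embryonic stem cells (ES interphase NT) on the same slide was also dim, with 20.8% of probes detected, while a cleavage-inhibited sample on that slide was not, with 36.3%. The genome-less array of the second version was not dim: it detected 36.1% of its probes, against 33.8 and 34.9% in the MII oocytes. Its correlation with the MII oocyte arrays was 0.84 to 0.85, whereas that of the first genome-less array with M-phase zygotes was 0.56 to 0.59. Across 6558 genes the genome-less arrays of the versions correlated at 0.57, and the ES interphase NT arrays at 0.61. The 2-cell control samples, whose RNA was hybridized to both, reached 0.92 to 0.97 over all pairings of samples between versions. The comparisons with M-phase zygotes and MII oocytes are therefore set side by side below. Some values against 2-cell controls are given for the second version only.

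**Figure D1:**
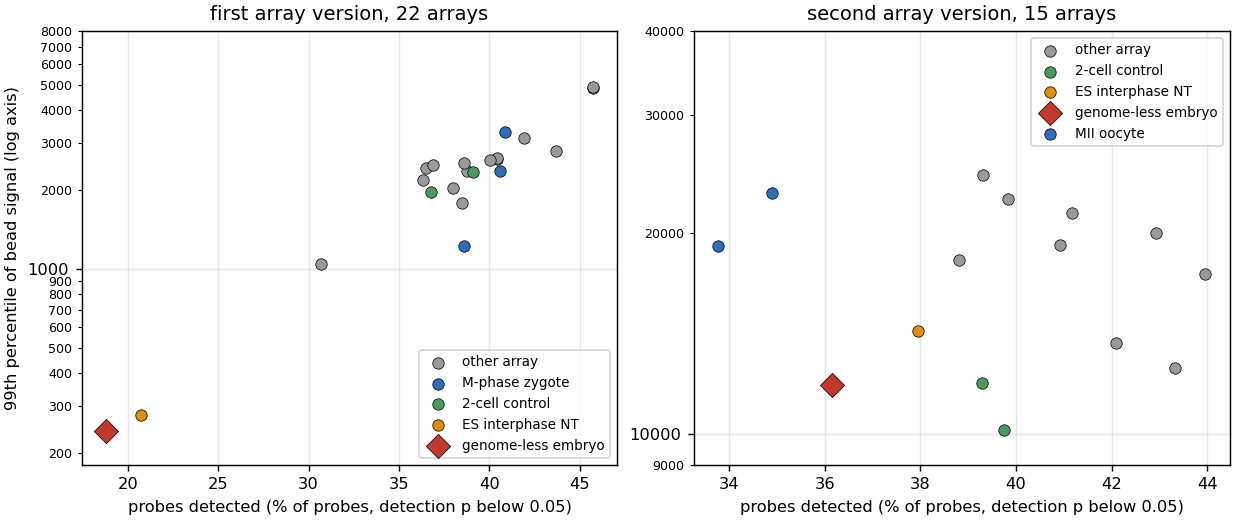
Share of probes detected (x axis, %) against the 99th percentile of the bead signal (y axis, log scale, no unit) for every array of each version, with 1 point per array. The genome-less array of the first version and the ES interphase NT array of its slide sit apart at the lower left, whereas the genome-less array of the second version lies within the range of the others on both axes.

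Against M-phase zygotes, 2042 of 8158 genes tested were higher in the genome-less sample (25% of genes tested) and 2114 were lower (25.9%), by limma with Benjamini-Hochberg adjustment at 0.05. Of the lower genes, 1798 were not detected on the genome-less array and have only a bound, and 316 were measured on both sides. Of the higher genes, 511 were not detected on it either; counting a rise only where the genome-less array detected the gene left 1531 (18.8%). Against MII oocytes on the second version, 1010 of 7181 genes were higher (14.1%) and 1095 were lower (15.2%), of which 589 lower genes were detected in the genome-less sample. Both comparisons have 1 genome-less sample, which was assumed to vary like the other groups. With the slide as a block, 1136 genes were lower than in M-phase zygotes, and 212 were higher and 384 lower than in MII oocytes.

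Of the 6558 genes tested on both versions, 581 were lower in both comparisons and 263 were higher in both. The shared falls are 28.8% of the falls against M-phase zygotes and 55.2% of the falls against MII oocytes, where 1052 of all these genes were lower against MII oocytes and 2016 against M-phase zygotes. The shared rises are 19.8% of the rises against M-phase zygotes and 27.4% of those against MII oocytes, where 14.6% of all these genes were higher against MII oocytes and 20.2% against M-phase zygotes. Opposite calls numbered 241 genes lower than M-phase zygotes and higher than MII oocytes, and 86 the other way. As a description, the differences correlated at r = 0.23 over the 6558 genes and at 0.37 over the 1471 genes detected on all 7 arrays; the genes of a comparison share 1 genome-less array.

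**Figure D2:**
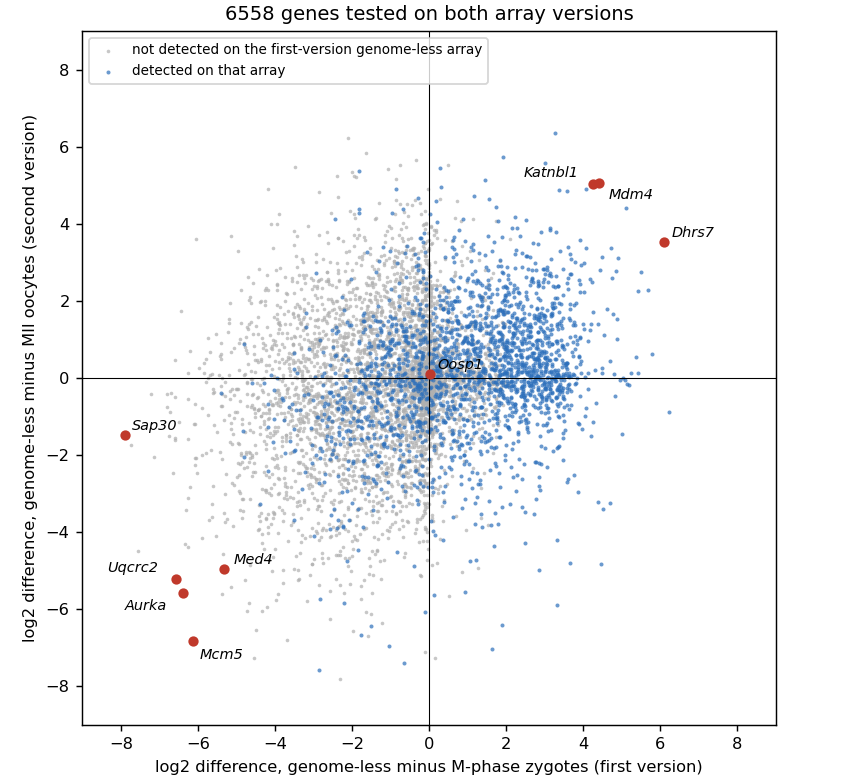
Log2 difference between the genome-less sample and M-phase zygotes on the first version (x axis) against that between the genome-less sample and MII oocytes on the second (y axis), 1 point per gene for 6558 genes; blue genes were detected on the first genome-less array and grey genes were not. Mcm5, Aurka and Uqcrc2 lie low on both axes and Mdm4 and Katnbl1 high on both, whereas Sap30, the lowest on the x axis among named genes, lies at -1.49 on the y axis.

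The 6 genes with the largest falls on both versions were Mcm5, Aurka, Uqcrc2, Med4, Itsn2 and H13. Mcm5, a subunit of the replicative helicase, had log2 levels of 10.39, 10.33 and 10.42 in the M-phase zygotes and was not detected in the genome-less sample. On the second version it stood at 12.45 and 12.05 in the MII oocytes and was again not detected in the genome-less sample. It was at least 14.4-fold lower than in M-phase zygotes (adjusted p = 1.46e-09) and at least 60.6-fold lower than in MII oocytes (adjusted p = 7.05e-07), with no overlap in either.

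Aurka, the kinase that builds spindle poles, had levels of 10.43, 11.37 and 10.51 in M-phase zygotes and 11.81 and 11.67 in MII oocytes. It was detected on neither genome-less array, which puts it at least 18.9-fold and at least 42.6-fold lower (adjusted p = 1.69e-08 and 1.43e-05). In 2-cell controls it was present, at 11.93 and 12.01 on the second version, so the genome-less sample lay below both the egg and the embryo. Uqcrc2, a core subunit of respiratory complex III, had levels of 14.38 and 14.75 in MII oocytes and 9.35 in the genome-less sample of that version, where it was detected. Its difference was -5.21 ± 0.37 log2 (SE, adjusted p = 4.89e-06), and against M-phase zygotes it was at least 22.1-fold lower. Med4, a subunit of the Mediator complex that links transcription factors to RNA polymerase II, stood at 11.95 and 11.62 in MII oocytes and at 6.83 without a genome, and differed by -4.96 ± 0.36 log2 (adjusted p = 5.14e-06). Against M-phase zygotes, at 9.61, 9.79 and 9.57, it was at least 8.74-fold lower. Itsn2, an endocytic scaffold, and H13, the signal peptide peptidase, were detected on neither genome-less array. With the slide as a block their calls against MII oocytes were lost (adjusted p = 0.060 and 0.084), and so was that of Itsn2 against M-phase zygotes (adjusted p = 0.10).

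The largest falls against M-phase zygotes alone were in genes that the dim array did not detect, and the second version gave them much smaller differences. The 10 largest were Sap30, Tubb4b, Eef1a1, Prc1, Nanos2, Slc25a5, Tdrd12, Rassf1, Psenen and Mfsd2a, at least 22.5-fold to at least 68.8-fold lower. Sap30, a subunit of the Sin3 histone deacetylase complex, had levels of 12.77, 12.46 and 12.67 in M-phase zygotes and was undetected in the genome-less sample. On the second version it stood at 15.03 and 15.00 in MII oocytes and at 13.53 in the genome-less sample, a fall of 1.49 on the log2 scale (SE 0.23, adjusted p = 0.000664). On the dim ES interphase NT array of the first slide Sap30 was detected, at 11.23.

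Prc1, which bundles the microtubules of the central spindle, fell most in this group on the second version. It had levels of 13.73 and 14.15 in MII oocytes and 9.46 in the genome-less sample, a difference of -4.48 ± 0.48 log2 (adjusted p = 5.11e-05). Tubb4b, a beta tubulin, and Slc25a5, the mitochondrial ADP/ATP carrier, were also lower than in MII oocytes, by differences of -1.75 and -2.05 log2 (adjusted p = 0.00203 and 0.000168), the former lost with the slide as a block (adjusted p = 0.10). For Nanos2, a germ-cell RNA-binding protein, the second version gave 14.53 and 14.00 in MII oocytes against 13.84, a difference of -0.42 that did not pass the test (adjusted p = 0.561). Tdrd12, Rassf1, Psenen and Mfsd2a did not pass it either, and Eef1a1, the translation elongation factor, was not tested there.

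Mdm4, an inhibitor of p53, was higher on both versions. Its levels were 7.70, 7.84 and 7.39 in M-phase zygotes and 12.06 in the genome-less sample, and 7.29 and 6.91 in MII oocytes against 12.16. The differences were 4.42 ± 0.51 and 5.06 ± 0.59 log2 (adjusted p = 6.59e-06 and 8.93e-05). It was also above the 2-cell controls, at 5.62 and 5.25 on the first version and, in the 1 sample that detected it on the second, at 6.39. On the ES interphase NT arrays Mdm4 stood at 8.02 and 10.50, above the compared groups and below the genome-less samples.

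Katnbl1, a regulator of the microtubule-severing katanin, had levels of 6.36, 6.15 and 5.96 in M-phase zygotes and 10.40 without a genome. It was not detected in either MII oocyte sample and stood at 10.98 in the genome-less sample of that version, at least 22.2-fold higher (adjusted p = 0.000447). Lypla1, a depalmitoylating thioesterase, had levels of 6.68, 6.67 and 6.79 against 10.30, and on the second version was at least 14.9-fold higher than in MII oocytes, which did not detect it. Rabgef1, an exchange factor for the endosomal GTPase Rab5, was at least 9.89-fold higher than in MII oocytes but stood at 9.82, below the 13.00 and 13.01 of the 2-cell controls. Ankrd13c was higher in both comparisons as well, by 3.92 log2 against M-phase zygotes and at least 9.13-fold against MII oocytes, which did not detect it. With the slide as a block the calls of Katnbl1, Lypla1 and Rabgef1 against M-phase zygotes were lost (adjusted p = 0.059, 0.11 and 0.084), and fitted on the compared groups alone that of Ankrd13c against MII oocytes was (adjusted p = 0.059).

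S100a6, a calcium-binding protein of fibroblasts and other somatic cells, passed both tests with a wide spread. Its levels were 4.91, 4.60 and 9.26 in M-phase zygotes and 11.37 in the genome-less sample, so that 1 of the 3 zygote samples lay far above the others. The ES interphase NT array of the same slide had 11.61, and that of the second version did not detect it, while the genome-less sample there had 11.54 against 8.14 in the MII oocyte sample that detected it. Its call against MII oocytes was lost with the slide as a block (adjusted p = 0.082), and that against M-phase zygotes when the compared groups were fitted alone (adjusted p = 0.062). Of 19 fibroblast markers tested on the first version, 3 were detected in the genome-less sample, against 4 or 5 in each M-phase zygote sample. Their summed signal was 5223 in the genome-less sample and 4031 to 5081 in the zygotes, and on the second version 17215 against 8479 and 9276 in MII oocytes. Of 16 macrophage and leukocyte markers none was detected on the first genome-less array, with 3 or 4 in the zygotes, and of 13 tested on the second 2 were detected, with 2 and 4 in MII oocytes. Of 9 cumulus and granulosa cell markers 3 were detected, against 1 or 2 in the zygotes, with a summed signal of 1117 against 192 to 370; of 4 tested on the second version 2 were detected in every sample of both groups. The part of these cells in the results was not tested.

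Of the 10 largest rises against M-phase zygotes, 3 were also called against MII oocytes: Dhrs7, a reductase, Lin7c, a polarity scaffold, and Vamp2, a vesicle-fusion protein. Dhrs7 had levels of 4.76 and 4.72 in the M-phase zygotes that detected it and 10.72 in the genome-less sample. In MII oocytes 1 sample detected it, at 6.72, against 9.96 without a genome (difference 3.53 ± 0.88 log2, adjusted p = 0.0107). Lin7c had 8.27 and 8.79 in MII oocytes and 11.27 without a genome (difference 2.75 ± 0.67, adjusted p = 0.00955), and stood at 8.77 and 9.96 on the ES interphase NT arrays. Vamp2 was undetected in every reference sample of both comparisons, and was at least 35.4-fold higher than in M-phase zygotes and at least 1.70-fold higher than in MII oocytes. All 3 calls against MII oocytes were lost with the slide as a block (adjusted p = 0.23, 0.32 and 0.063).

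The other 7 were not called higher on the second version. Hoxb5, a homeobox factor of body patterning, stood at 10.46 on the first genome-less array and was undetected on the second, and Clmn and Serpinf1 showed the same. Zfp326, an RNA-processing zinc finger protein, stood at 10.84 on the first array against 4.88 in the 1 zygote sample that detected it, but on the second had 9.28 and 9.19 in MII oocytes against 8.35. Zfp397 did not pass against MII oocytes (2.30 ± 0.92 log2, adjusted p = 0.0829). Krt17, a keratin, and Fstl5 were not tested there. Krt17, Hoxb5 and Clmn were also bright on the dim ES interphase NT array of the same slide, at 9.14, 9.54 and 8.44, whereas Zfp326, Zfp397 and Fstl5 were undetected on it. With the slide as a block the calls of Zfp326 and Krt17 against M-phase zygotes were lost (adjusted p = 0.088 and 0.061).

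**Figure D3:**
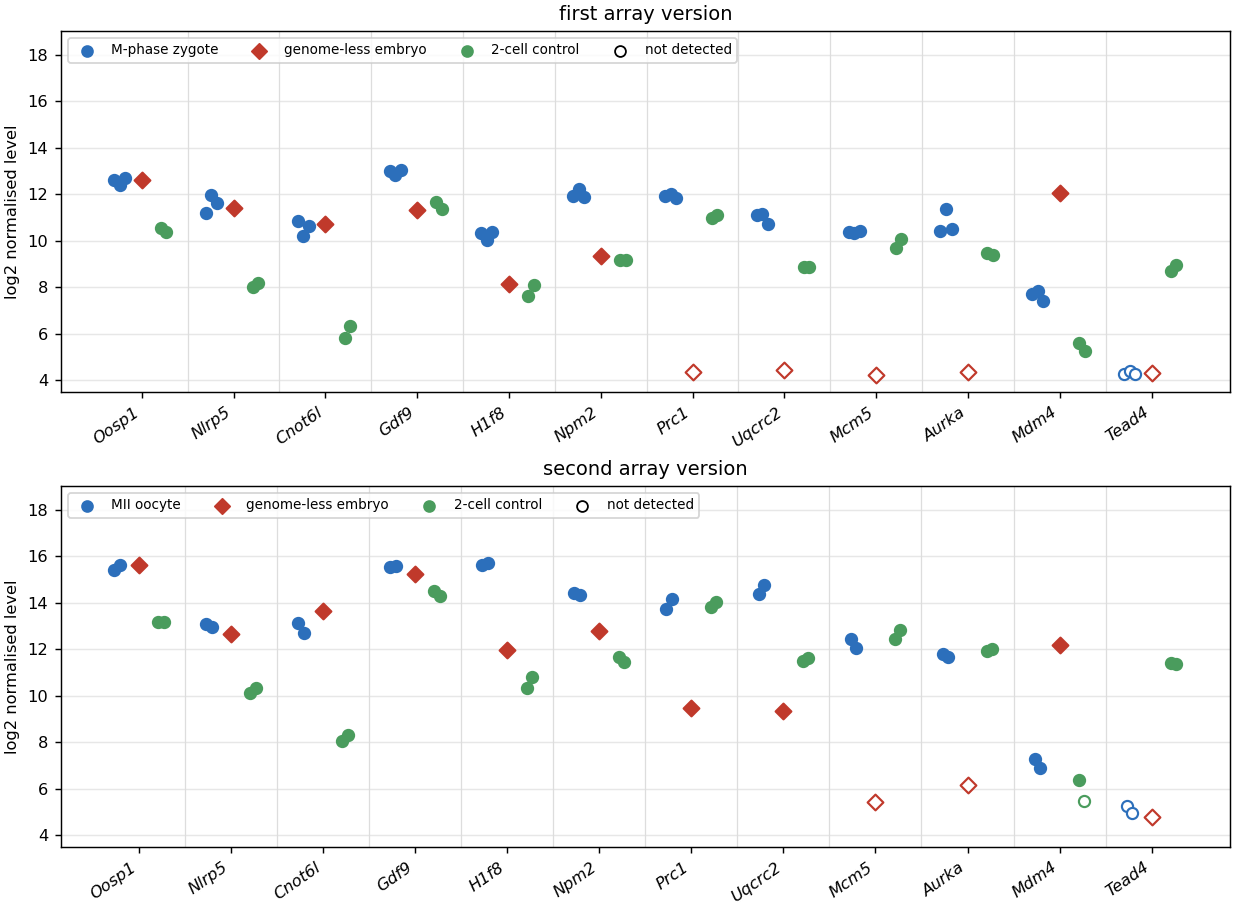
Normalised log2 level of named genes (x axis, genes; y axis, log2 level) in each sample of the compared groups on the first version (upper panel) and the second (lower panel), 1 point per sample, with open symbols where the gene was not detected. Oosp1, Nlrp5 and Cnot6l lie level with M-phase zygotes and MII oocytes and above 2-cell controls, whereas Mcm5 and Aurka are open symbols in both genome-less samples and Mdm4 lies above every reference sample.

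Some maternal RNAs had a share of the sample near that in M-phase zygotes or MII oocytes. A gene was taken as held where the 95% confidence interval of its difference lay within 1 log2 of 0, which was met by 67 genes against M-phase zygotes (0.821% of genes tested) and 115 against MII oocytes (1.6%). The interval of 1 sample is wide, and a held gene also had to be detected in every sample compared. Why the count is small was not tested. It was 41 without M-phase zygote 25 and 2 and 12 with the slide as a block. Of the maternal lists, 4 genes were held against M-phase zygotes: Oosp1, Nlrp5, Uhrf1 and Cnot6l. Oosp1, an oocyte-secreted protein, had levels of 12.62, 12.37 and 12.70 in M-phase zygotes and 12.59 in the genome-less sample (difference 0.03 ± 0.27 log2), and 15.41 and 15.63 in MII oocytes against 15.62 (0.10 ± 0.28). The 2-cell controls lay below all of these, at 10.53 and 10.36 on the first version and 13.17 in both samples on the second. On series matrix values and under percentile scaling Oosp1 was above M-phase zygotes, by 1.33 and 1.37 log2.

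Nlrp5, also called Mater, an organiser of the subcortical complex that the early embryo needs, had 11.18, 11.96 and 11.61 in M-phase zygotes and 11.39 without a genome. On the second version it had 13.08 and 12.95 in MII oocytes and 12.64 without a genome, above the 10.13 and 10.32 of the 2-cell controls (difference from these 2.41 ± 0.39, adjusted p = 0.000282). Averaging all probes of the gene gave Nlrp5 a difference of -1.88 from M-phase zygotes and 1.91 from MII oocytes, so its probes disagree. Cnot6l, a deadenylase of the CCR4-NOT complex, had 10.85, 10.22 and 10.65 against 10.71, and 13.11 and 12.70 against 13.65. It was 5.47 ± 0.63 log2 above the 2-cell controls on the second version (adjusted p = 2.72e-05), which stood at 8.03 and 8.32. Uhrf1, which guides maintenance of DNA methylation, was level with M-phase zygotes but below MII oocytes, at 13.52 against 15.01 and 14.49 (-1.23 ± 0.40, adjusted p = 0.0356), a call that was lost without MII oocyte 1 (-0.97, adjusted p = 0.13) and with the slide as a block (adjusted p = 0.22).

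The secreted factors and zona genes of the oocyte were lower than in M-phase zygotes in 7 of 10 tested, with a median of -1.55 log2, and lower than in MII oocytes in 2 of 10, with a median of -0.59; the medians over all genes tested were -0.06 and -0.03, and the shares of all genes lower 25.9 and 15.2%. Gdf9, a growth factor by which the oocyte instructs its follicle, had 13.00, 12.81 and 13.02 in M-phase zygotes and 11.31 in the genome-less sample (-1.64 ± 0.25, adjusted p = 8.51e-05), while MII oocytes had 15.52 and 15.55 against 15.24 (-0.29 ± 0.39, adjusted p = 0.665). Its partner Bmp15 was lower than in M-phase zygotes by 1.25 log2 (adjusted p = 0.0452), a call lost when any 1 of the 3 zygote samples was left out (adjusted p = 0.070 to 0.087). In MII oocytes Bmp15 had 13.74 and 14.29, against 15.26 in the genome-less sample, a difference of 1.25 ± 0.58 that did not pass (adjusted p = 0.134). Fgf8, a growth factor made by the oocyte, was undetected on the first genome-less array and stood at 11.11 on the second, between the 11.24 and 10.61 of the MII oocytes, and was at least 33.5-fold above the 2-cell controls, which did not detect it. Izumo1r, also called Juno, the egg's sperm receptor, was detected on neither genome-less array and was at least 2.58-fold lower than in M-phase zygotes and at least 3.42-fold lower than in MII oocytes. Of the zona pellucida genes, Zp1 stood at 9.21 against 8.77, 8.73 and 8.62 in M-phase zygotes, and Zp3 at 9.35 against 8.49, 8.39 and 8.41; neither passed the test in either comparison, though under percentile scaling Zp3 was lower than in MII oocytes (-1.77, adjusted p = 0.029).

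Genes of the subcortical complex and the oocyte NLRP family were lower than in M-phase zygotes in 6 of 10 tested and higher in 1, and lower than in MII oocytes in 2 of 7, where 25.9 and 15.2% of all genes were lower. Ooep, which with Nlrp5 builds the complex, fell in both, by differences of -1.42 ± 0.43 and -1.56 ± 0.36 log2 (adjusted p = 0.0130 and 0.00682), and stayed above the 2-cell controls of the second version by 1.55. Padi6, a further component, was lower than in M-phase zygotes (-1.24 ± 0.20) and did not pass against MII oocytes (-0.69 ± 0.58). Zbed3 was at least 3.72-fold lower than in M-phase zygotes, since the genome-less array did not detect it, and did not pass against MII oocytes (0.91 ± 0.49). Among oocyte transcription factors 3 of 7 were higher and 2 lower than in M-phase zygotes, and 2 of 6 higher and none lower than in MII oocytes, where 25 and 14.1% of all genes were higher. Nr6a1, an orphan nuclear receptor of germ cells, was higher in both, by 2.93 ± 0.62 and 1.81 ± 0.52, and above the 2-cell controls by 2.23. Obox6 belongs to the oocyte homeobox family by name, but here its RNA was brightest in 2-cell controls, at 9.66 and 9.57 on the first version. The genome-less sample there had 7.44, higher than M-phase zygotes by 2.77 ± 0.30. No interphase zygote or MII oocyte sample detected it. It was undetected in the second genome-less sample, at least 85.1-fold below the 2-cell controls of that version.

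Among maternal chromatin genes, 11 of 21 were lower and 2 higher than in M-phase zygotes, and 3 of 20 lower and 4 higher than in MII oocytes. Of all genes 25.9 and 15.2% were lower, so that the second count lies at the share of all genes. H1f8, the linker histone of the oocyte, fell in both. Its levels were 10.32, 10.03 and 10.35 in M-phase zygotes against 8.14, and 15.62 and 15.69 in MII oocytes against 11.98, with differences of -2.09 ± 0.39 and -3.67 ± 0.63 log2 (adjusted p = 0.000481 and 0.00111), the second of which was lost with the slide as a block (adjusted p = 0.099). Npm2, the chaperone that opens sperm chromatin, was lower than in M-phase zygotes (9.33 against 11.91, 12.23 and 11.87, adjusted p = 3.58e-05) and stood at 12.77 against 14.42 and 14.33 in MII oocytes, where it did not pass (-1.61 ± 0.63, adjusted p = 0.0799, and 0.027 under percentile scaling). Dppa3, also called Stella, which protects the maternal genome from demethylation, was lower than in M-phase zygotes by a difference of -3.57 log2 and did not pass against MII oocytes (-0.67 ± 0.39, adjusted p = 0.234).

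Among RNA storage and translational control genes, 5 of 18 were lower and 6 higher than in M-phase zygotes, and 4 of 17 lower and 3 higher than in MII oocytes, against 25.9 and 15.2% of all genes lower and 25 and 14.1% higher; the first count of falls is near that share. Ythdf3, a reader of methylated adenosine, was higher in both, by 3.81 ± 0.65 and 1.96 ± 0.56 log2. Eif4enif1, the eIF4E transporter, and Lsm14b, which holds stored RNA in the oocyte, were undetected on the first genome-less array and did not pass against MII oocytes (0.73 ± 0.54 and -0.90 ± 0.85). Among RNA decay genes, 14 of 35 were lower and 5 higher than in M-phase zygotes, and 10 of 32 lower and 4 higher than in MII oocytes, against 25.9 and 15.2% of all genes lower. Edc4, a scaffold of the decapping complex, was undetected on the first genome-less array and on the second stood at 10.07 against 12.85 and 12.99 in MII oocytes (-2.85 ± 0.43, adjusted p = 0.000542). Tob2, an adaptor of deadenylation, and Lsm7, of the ring that binds RNA ends before decapping, were also lower in both.

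Of 8 genes whose stored RNA is recruited when the oocyte matures, 3 were lower than in M-phase zygotes and none was higher; 2 were lower and 1 higher than in MII oocytes, against 25.9 and 15.2% of all genes lower. Btg4, the adaptor that brings the deadenylase to maternal RNA, had 11.13, 10.34 and 11.13 in M-phase zygotes and 9.86 without a genome, and 13.12 and 12.40 in MII oocytes against 14.36. It was called lower in the first comparison (adjusted p = 0.0475) and higher in the second (adjusted p = 0.0473), and both calls were lost on leaving out a sample, the first without M-phase zygote 25 or 26 (adjusted p = 0.12 and 0.11) and the second without MII oocyte 2 (adjusted p = 0.16). Against 2-cell controls of the second version 6 of the 8 were higher and 1 lower, with a median of 2.73 log2. On the first version 4 were higher and 1 lower, with a median of 1.00, or 0.64 with undetected values at the lowest detected signal. Of all genes 28 and 26.8% were higher on the second and first versions.

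Oxidative phosphorylation and proteasome genes were called lower more often than higher on both versions. So were several other lists, among them RNA decay, meiosis and mitosis, DNA replication and ribosome biogenesis. Falls were more frequent among bright genes. In the brightest of 4 bins by level, 48.1% of all genes were lower than in M-phase zygotes and 27.2% lower than in MII oocytes. The lists were not matched by level. For oxidative phosphorylation 25 of 48 genes were lower and 6 higher than in M-phase zygotes (median -1.34 log2, and -0.25 with undetected values at the lowest detected signal, since 21 of the 48 were detected without a genome), and 24 of 51 were lower and 1 higher than in MII oocytes (median -0.87), against 25.9 and 15.2% of all genes lower. Sdhc, of respiratory complex II, was undetected on the first genome-less array, at least 8.23-fold below M-phase zygotes, and on the second stood at 10.27 against 12.82 and 12.69 in MII oocytes (-2.49 ± 0.38, adjusted p = 0.000552). Ndufa1, of complex I, was lower in both as well. For the proteasome 14 of 29 genes were lower and 4 higher than in M-phase zygotes, and 11 of 28 lower and 3 higher than in MII oocytes. Pomp, which assembles the proteasome, had 13.24 and 12.82 in MII oocytes and 11.46 without a genome (-1.57 ± 0.29, adjusted p = 0.0017), and Psma4, Psma7 and Psmb3 of its core were lower in both comparisons, by -2.81, -3.85 and -2.11 log2 against MII oocytes. For translation initiation the medians had opposite signs, though calls were more often lower than higher in both comparisons. Of 25 genes 15 were lower and 1 higher than in M-phase zygotes. Their median was -2.18, or -1.22 with undetected values at the lowest detected signal. Against MII oocytes 8 were lower and 6 higher, with medians of 0.61 and 0.30, where 15.2% of all genes were lower and 14.1% higher.

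Genes of meiosis and mitosis were lower than in M-phase zygotes in 10 of 18 and higher in none; 7 of 20 were lower and 2 higher than in MII oocytes, against 25.9 and 15.2% of all genes lower. Cdk1, the catalytic partner of cyclin B, was undetected on the first genome-less array and at least 1.57-fold lower, yet on the second it stood at 7.20 where MII oocytes did not detect it. Its call against M-phase zygotes was lost under percentile scaling (-1.72, adjusted p = 0.056), and that against MII oocytes was lost without background correction (0.80, adjusted p = 0.28). Among DNA replication genes 14 of 29 were lower and 3 higher than in M-phase zygotes, and 8 of 28 lower and 2 higher than in MII oocytes, against the same shares of all genes. Among glycolysis genes 5 of 12 were lower and 1 higher than in M-phase zygotes, and 3 of 12 were higher and none lower than in MII oocytes, where 14.1% of all genes were higher.

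**Figure D4:**
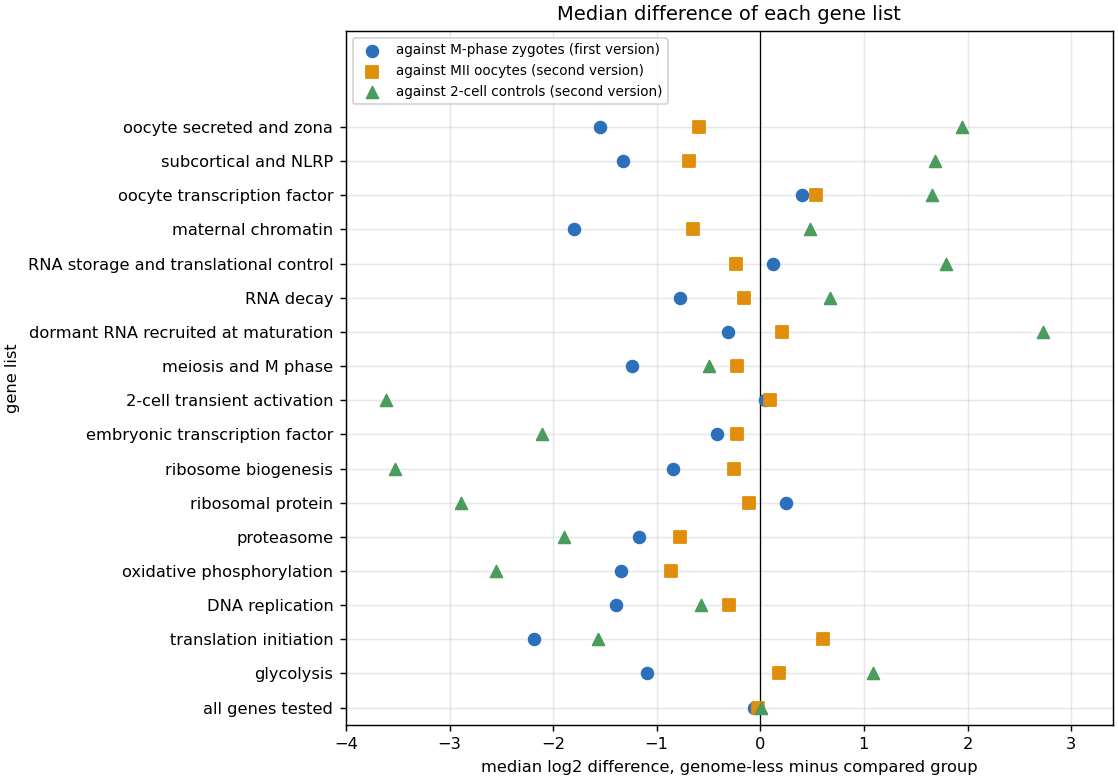
Median log2 difference of each gene list (y axis), with undetected values as measured, between the genome-less sample and the compared group (x axis), for M-phase zygotes on the first version (circles), MII oocytes on the second (squares) and 2-cell controls on the second (triangles). Oxidative phosphorylation and proteasome genes lie left of 0 in all 3, whereas oocyte secreted and zona genes lie left of 0 against M-phase zygotes and right of 0 against 2-cell controls.

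To set these values beside normal development, a decay set and an activation set were taken from samples outside the groups compared below. On the first version those samples still add to the spread that all groups share, so the sets are not independent of the calls. Cleavage-inhibited embryos also have the timing of 2-cell controls, so the direction of both sets against 2-cell controls was largely set by the choice of genes. The decay set held 1502 genes at least 1 log2 lower in cleavage-inhibited embryos at 2-cell timing than in interphase zygotes, and the activation set 1504 genes at least 1 log2 higher. Of the decay set 877 were lower in genome-less embryos than in M-phase zygotes (58.4%) and 138 higher, with a median of -1.57 log2, against 25.9% of all genes lower. The first genome-less array detected 600 of the 1502, and with undetected values placed at the lowest detected signal the median was -0.31. The set was not matched by level. In the brightest of 4 bins by level, 48.1% of all genes were lower than in M-phase zygotes and 27.2% lower than in MII oocytes. Against MII oocytes 294 of 1400 were lower and 203 higher, with a median of -0.22, against 15.2% of all genes. With the slide as a block the lower counts were 488 and 111.

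Against 2-cell controls the versions differed. On the first version 2184 of 8158 genes were higher in the genome-less sample (26.8%) and 2105 lower (25.8%), and on the second, with the same 2-cell RNA, 2013 of 7181 were higher (28%) and 1858 lower (25.9%). Of the decay set 487 of 1502 were higher than in 2-cell controls on the first version (32.4%, against 26.8% of all genes) and 219 lower, with a median of 0.09 log2. On the second 763 of 1400 were higher (54.5%, against 28% of all genes) and 86 lower, with a median of 1.70. The largest such differences on the second version, a choice made after the data were seen, were Tgfb2, Epb41l3, Egfr, Pbx2, Ets2 and Nsd1. Tgfb2, a growth factor, had 12.48 and 12.70 in MII oocytes and 13.47 without a genome, and 1 of the 2-cell controls detected it, at 7.09. Egfr, the receptor for epidermal growth factor, stood at 12.69 and was not detected in 2-cell controls, at least 100-fold lower there (adjusted p = 5e-06). It was also above MII oocytes, at 9.67 and 10.29 (2.71 ± 0.65 log2, adjusted p = 0.00872), and above M-phase zygotes, at 8.00, 8.22 and 7.60 against 9.87. Epb41l3, a membrane skeleton protein, stood at 12.21 in the genome-less sample, near the 12.08 and 11.34 of MII oocytes, but was undetected on the first genome-less array.

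The activation set, RNA that normal embryos gain, was below 2-cell controls on both versions, a direction largely set by the choice of genes. Of the activation set 1098 of 1504 genes (73.0%) were lower than in 2-cell controls on the first version and 1057 of 1477 (71.6%) on the second, with medians of -2.44 and -2.88 log2, or -1.01 and -2.39 with undetected values at the lowest detected signal; 25.8 and 25.9% of all genes were lower. Against M-phase zygotes 296 were higher (19.7%, against 25% of all genes) and 374 lower, and against MII oocytes 236 of 1477 were higher, near the 14.1% of all genes, and 273 lower. Tead4, a factor of the trophectoderm, was detected in no genome-less, M-phase zygote or MII oocyte sample, and in 2-cell controls stood at 8.68 and 8.95 on the first version and at 11.42 and 11.34 on the second. Pramel7 gave the same order, at least 175-fold below the 2-cell controls on the second version (adjusted p = 3.38e-08). Dppa4, a pluripotency-associated chromatin protein, was at least 512-fold below 2-cell controls on the second version, where these stood at 15.52 and 15.14 and neither the genome-less sample nor MII oocytes detected it; on the first, M-phase zygotes had 7.90, 7.85 and 8.83.

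Of 21 embryonic transcription factors tested on the second version, 11 were lower and 2 higher than in 2-cell controls, where 25.9% of all genes were lower. Against MII oocytes 2 were lower and 2 higher. On the first version 9 of 20 were lower and 5 higher than in 2-cell controls, where 25.8% of all genes were lower. Against M-phase zygotes 3 were lower and 4 higher. Nanog, Sox15 and Tfap2c, factors of pluripotency and of the early lineages, were lower than in 2-cell controls, and none of these passed against MII oocytes. Nanog and Sox15 were undetected in the genome-less sample of that version, which bounds their differences at -3.17 and -5.62 log2, and Tfap2c, which was detected, differed by -3.29 log2. Esrrb, an orphan nuclear receptor of pluripotent cells, was undetected on the first genome-less array, at least 3.67-fold below M-phase zygotes, and on the second differed from MII oocytes by -3.79 ± 0.71. Lin28a, an RNA-binding protein that blocks let-7 maturation, was higher in both, by 2.67 ± 0.48 and 2.79 ± 0.71, and above 2-cell controls by 3.79. Sall4, a zinc finger factor that the oocyte also holds, went in opposite directions, higher than in M-phase zygotes by 1.33 ± 0.36 and lower than in MII oocytes by a difference of -2.76 ± 0.63.

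Of 8 genes of the transient wave of transcription at the 2-cell stage 6 were lower than in 2-cell controls on each version. Of all genes 25.8 and 25.9% were lower. Against M-phase zygotes 2 were higher and 1 lower, and against MII oocytes 1 was higher. These rises lie near the shares of all genes higher, 25 and 14.1%. Of the 2, Usp17lc was detected in neither the genome-less sample nor the M-phase zygotes. Zfp352, a marker of this wave, stood at 7.31 against 5.68, 5.97 and 5.72 in M-phase zygotes (1.52 ± 0.56, adjusted p = 0.0353, and 0.070 and 0.065 without zygote 25 or 26), and at 7.84 on the second version where MII oocytes did not detect it (adjusted p = 0.165). Under percentile scaling its difference from M-phase zygotes was 0.85 (adjusted p = 0.17). Of ribosome biogenesis genes, 38 of 47 on the first version and 39 of 46 on the second were lower than in 2-cell controls, with medians of -3.68 and -3.52 log2, or -1.93 and -3.18 with undetected values at the lowest detected signal. Against MII oocytes 15 of 46 of them were lower and 7 higher, where 15.2% of all genes were lower and 14.1% higher. Ebna1bp2, which processes ribosomal RNA, had 12.38 and 12.44 in MII oocytes, 8.98 without a genome and 14.89 and 14.84 in 2-cell controls, so that it fell below the egg as well as the embryo. Ncl, nucleolin, was undetected in MII oocytes, stood at 7.57 without a genome and at 12.39 and 12.58 in 2-cell controls. Of 30 ribosomal protein genes 18 and 23 were lower than in 2-cell controls, where 25.8 and 25.9% of all genes were lower. Against M-phase zygotes 8 were higher and 3 lower, and against MII oocytes 4 were higher and 9 lower. These rises too lie near the shares of all genes, 25 and 14.1%. The falls do not: of all genes 25.9 and 15.2% were lower, so the 3 of 30 lie below that share and the 9 of 30 above it.

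**Figure D5:**
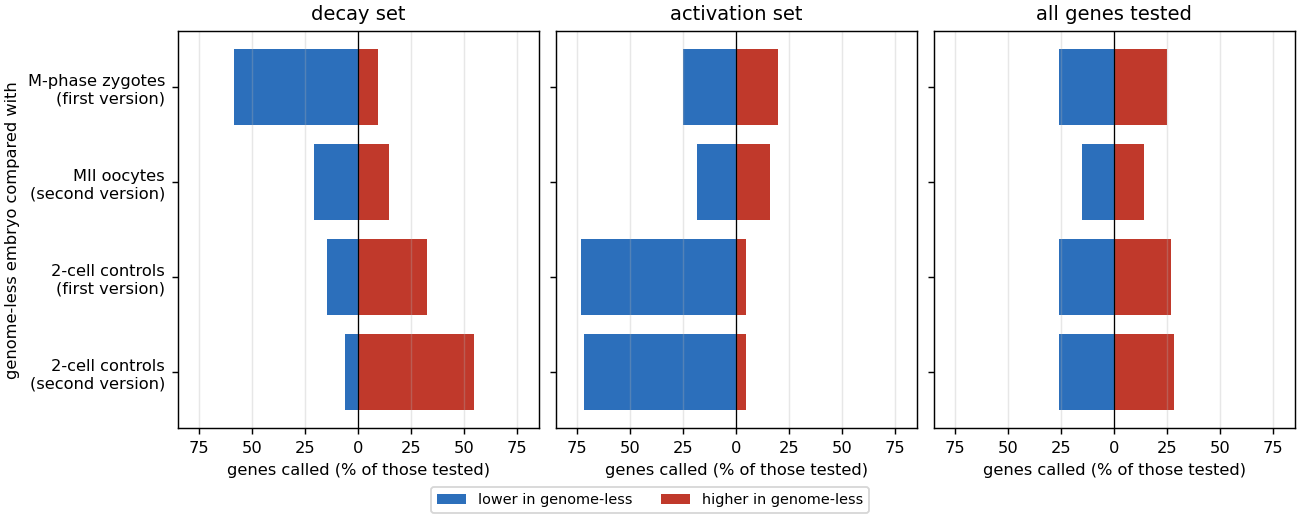
Share of the decay set, the activation set and all genes tested that were called lower (blue, to the left) or higher (red, to the right) in the genome-less sample, in % of genes tested (x axis), for each compared group (y axis). Decay-set genes were lower than in M-phase zygotes for 58.4% and higher than in 2-cell controls of the second version for 54.5%, and activation-set genes were lower than in 2-cell controls for 73.0 and 71.6%. The direction of both sets against 2-cell controls was largely set by the choice of genes.

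The cleavage-inhibited embryos are the one group with a sample on the slide of the first genome-less array. Against the pair of them 2147 genes were higher (26.3%) and 2118 lower (26%). All of these calls kept their direction against the sample on that slide alone. That sample is itself a member of the pair, so its direction was largely fixed by the calls. The agreement therefore cannot decide whether the calls depend on the slide. No M-phase zygote or MII oocyte shares a slide with a genome-less array, so slide and group cannot be told apart there without other groups. With genes split into 4 equal bins by their level in the samples outside each comparison, the share lower than M-phase zygotes went from 8.24% in the faintest bin to 48.1% in the brightest, and that of genes lower than MII oocytes from 10.7 to 27.2%.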

How the data were processed

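Per the labels' protocols, RNA came from a PicoPure kit and was amplified and biotin-labelled by the Illumina TotalPrep kit. The deposited values were an average bead intensity per probe, not normalized between arrays, with a detection p-value, per the file headers; the submitters' processing notes name GenomeStudio (version not given). The first version has 22 arrays and 24613 probes (14898 with 1 gene symbol), the second 15 arrays and 25697 probes (15052). Versions were normalized separately by neqc (limma 3.58.1, R 4.3.3; offset 16, quantile, log2). A probe needed a detection p under 0.05 on 2 or more arrays, and the brightest probe stood for its gene. Group means were fitted to 19 and 15 samples (10 and 6 residual degrees of freedom) with moderated, trended variances, two-sided, and calls were made at 0.05 after Benjamini-Hochberg adjustment. The labels do not say whether replicates came from separate collections, so the spread tested may be technical. A fold "at least" sets the brighter mean against the faintest detected signal on the arrays that did not detect the gene. The deposited series matrix, a linear intensity of 16075 probes with method and centring unstated, served as an alternative. The other alternatives were percentile scaling, no background correction, other filters, the mean over probes, the slide as a block, the compared groups alone and leaving out each sample.

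Named genes were the 10 largest rises and falls against M-phase zygotes, the 6 largest called alike against M-phase zygotes and MII oocytes, up to 4 genes per list, the 6 largest against 2-cell controls, held maternal genes and 25 fixed markers; some are left out for length. Lin28a, Nanog, Ooep, Padi6, Sall4, Sox15, Tfap2c and Zbed3, members of the lists, and the largest decay-set differences from 2-cell controls were chosen after their values were seen, and the alternatives were not run for those 8 list members. Members and the 23 gene lists were chosen with earlier results of these data known. The fit was tested on simulated data. Of the lists not described above, stress and immediate early genes were lower in 7 and higher in 2 of 22 against M-phase zygotes. Of p53 response genes 6 of 11 were higher and 1 lower, where 25.9% of all genes were lower and 25% higher. The first genome-less array detected only 3 of these 11, and their median was 0 with undetected values at the lowest detected signal. Neither list was called in any direction against MII oocytes.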

Additional observations from a re-analysis of the deposited data

How the results depend on the processing

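With 1 genome-less sample per version, its own spread is unknown, and the dim array bounds most falls on the first version. No paired analysis was possible because replicate numbers do not pair the groups compared. None of the called differences among the 52 and 49 named genes for which alternatives were run changed direction, and leaving out a sample gave 1941 to 2056 lower and 1920 to 1955 higher genes against M-phase zygotes and 1070 to 1146 and 944 to 945 against MII oocytes. Counts that moved by over 1.5 times are as follows.

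With the slide as a block, 1136 genes were lower than in M-phase zygotes, 212 higher and 384 lower than in MII oocytes, 1170 higher and 1012 lower than in 2-cell controls, and 1020 and 1194 on the second version. That block gave 488 and 111 decay-set falls, 172 and 61 activation-set rises, 20 maternal-list falls and 2 and 12 held genes. Fitting the compared groups alone gave 426 higher and 478 lower genes against MII oocytes, 170 decay-set falls, 96 activation-set rises, and 242 and 70 held genes. Without a detection filter 3376, 3394 and 3383 genes were higher than in M-phase zygotes, 2-cell controls and cleavage-inhibited embryos. The filter on compared arrays gave 1158 lower genes against 2-cell controls on the second version. Held genes numbered 131 and 543 without background correction, 34 on series matrix values, 105 with the mean over probes and 41 to 54 without a sample. The cause of these shifts was not tested, beyond the fewer or more genes that a filter passes.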
